A study of Mus musculus with 7 samples.

Results

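Open chromatin was examined around 9 genes that are recurrently mutated or rearranged in leukaemia: Dnmt3a, Tet2, Asxl1, Ezh2, Idh1, Idh2, Npm1, Kmt2a and Wt1. They were chosen by name among 21924 protein-coding genes of the mouse annotation (GENCODE M21, build mm10), and every peak that overlapped a gene body or the 20 kb on either side of it was kept. The data were 7 bulk ATAC-seq peak lists of HPC7, a mouse hematopoietic progenitor cell line that grows in stem cell factor. The libraries, called HPC7-1, HPC7-2, HPC7-4, HPC7-5, HPC7-6, HPC7-7 and HPC7-8, came from separate cultures of this 1 line and formed 1 group with no treatment named in the labels, so there was no comparison between conditions. The names of individual peaks carry the prefix VD in HPC7-1, HPC7-2 and HPC7-4 and EtOH in the other libraries, which the labels do not explain and which was not used to form groups. In ATAC-seq a transposase inserts sequencing adapters where DNA is accessible, and a peak marks an open chromatin region (OCR).

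DNMT3A adds methyl groups to cytosines in DNA and TET2 oxidises them. EZH2 is the histone H3 lysine 27 methyltransferase of Polycomb repressive complex PRC2, ASXL1 is a partner of the deubiquitinase BAP1, and KMT2A (MLL) methylates histone H3 lysine 4. IDH1 in the cytosol and IDH2 in mitochondria make the alpha-ketoglutarate that TET enzymes use, NPM1 is a nucleolar chaperone, and WT1 is a zinc finger transcription factor that can recruit TET2 to DNA.

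The peak lists held between 84593 peaks in HPC7-6 and 132852 peaks in HPC7-1. The height of a peak is its fold enrichment, the reads at its summit plus 1 over the background of that library plus 1, and the background ranged from 4.44 reads in HPC7-2 to 20.4 reads in HPC7-1. Because this scale differs between libraries, each peak also received a percentile of fold enrichment among all peaks of its own library, where 100 is the most intense. Promoter OCRs, within 3 kb of any annotated start, were present in all libraries at 9 of 9 hematopoietic progenitor marker genes (Kit, Cd34, Ptprc, Tal1, Gata2, Lmo2, Lyl1, Spi1 and Runx1), and at 1 of 7 genes of other tissues, the muscle gene Myod1 with a fold enrichment of 9.36 ± 1.79 (SD, n = 7). Of the genes of other blood cells described here, Mpo, Elane and Hba-a1 had a promoter OCR in all libraries and Cd3e had one in 2.

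At the promoters, 8 of the 9 genes carried an OCR in all 7 libraries, and these 8 lay in the top 25% of intensity in every library. Wt1 carried none in any library. Of all protein-coding genes, 60.8% had a promoter OCR in all 7 libraries, 50.3% had one in the top 25% of every library and 32.1% had none in any, so a promoter OCR at most of these genes was also the usual state of a protein-coding gene.

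The windows of the 9 genes held 152 OCRs once overlapping peaks of different libraries had been joined. A peak in all 7 libraries was found for 56 of them, or 36.8%, against 46.2% of all 144931 merged OCRs. With lists cut to equal length these shares were 56.5% of 92 OCRs and 58.9% of 104519 OCRs, a smaller gap than with the lists as deposited. A further 30, or 19.7%, were in 1 library, near the 17.9% of all merged OCRs. Of these 30, 25 were in HPC7-1, the library with the longest list and the highest background read count. The share of HPC7-1 among OCRs of 1 library over the genome was not computed. By position, 36 OCRs were at a start of the gene itself, 28 at a start of another gene, 49 in the gene body away from every start and 39 in the flanks (distal). Of these, 18, 12, 13 and 13 were in all 7 libraries. Over the genome, 66979 merged OCRs were in all libraries. Of those, 26541 were within 3 kb of a start and 40438 were not. In the windows, introns held the summits of 11 of the 13 gene body OCRs in all libraries, and of 41 of all 49 gene body OCRs. Promoter OCRs in all libraries had a median percentile of 89.97, above 68.2 for the gene body, 67.2 for the distal OCRs and 55.5 for OCRs at starts of other genes. Median percentiles by position were not computed over the genome.

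To show the DNA under some of the intense summits, stretches of distal and intronic OCRs at Dnmt3a, Ezh2, Tet2 and Kmt2a and promoter stretches of Asxl1 and Idh1 were chosen. Other windows are not printed, among them the Kmt2a promoter (mean percentile 92.2) and the distal Asxl1 OCR (86.4). How often a motif occurs in the stretches shown therefore depends on this choice. Each line below is 100 bases centred on the median summit, read from GRCm38 on the strand of the gene, in windows that touch no annotated UTR, and matches to the motifs listed after them are in capitals.
Dnmt3a, intronic OCR at 50.0 kb (chr12:3855945-3856044, plus strand): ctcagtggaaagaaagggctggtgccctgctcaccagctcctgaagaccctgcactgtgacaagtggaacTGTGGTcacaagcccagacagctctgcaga
Dnmt3a, distal OCR upstream (chr12:3791902-3792001, plus strand): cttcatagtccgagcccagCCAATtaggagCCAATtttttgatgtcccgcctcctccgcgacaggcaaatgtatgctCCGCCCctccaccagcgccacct
Ezh2, intronic OCR (chr6:47565712-47565811, minus strand): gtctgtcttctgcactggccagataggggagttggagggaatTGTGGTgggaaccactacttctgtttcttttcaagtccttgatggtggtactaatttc
Tet2, distal OCR upstream (chr3:133563693-133563792, minus strand): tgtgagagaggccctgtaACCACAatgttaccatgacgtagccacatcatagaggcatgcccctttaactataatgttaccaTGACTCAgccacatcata
Kmt2a, distal OCR upstream (chr9:44892820-44892919, minus strand): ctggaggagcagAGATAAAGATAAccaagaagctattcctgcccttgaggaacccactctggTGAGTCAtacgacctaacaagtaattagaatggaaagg
Asxl1, promoter OCR (chr2:153345626-153345725, plus strand): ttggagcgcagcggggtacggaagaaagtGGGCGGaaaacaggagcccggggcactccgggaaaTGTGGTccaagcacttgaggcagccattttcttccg
Idh1, OCR at the internal start (chr1:65178319-65178418, minus strand): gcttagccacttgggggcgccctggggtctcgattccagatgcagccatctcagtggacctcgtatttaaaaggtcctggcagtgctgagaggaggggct
Idh1, OCR at the 5′ start (chr1:65186588-65186687, minus strand): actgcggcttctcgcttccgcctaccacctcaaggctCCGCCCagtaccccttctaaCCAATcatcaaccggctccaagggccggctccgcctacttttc
The motifs were searched on both strands as AGATAA for erythroid and progenitor zinc finger factors of the GATA family, AGGAAG for ETS, TGTGGT for RUNX, TGANTCA for AP-1, CAGCTG for an E-box, CCAAT for NFY, GGGCGG for a GC box, GCGCANGC for NRF1 and the core consensus of CTCF by its name. No motif contains another, and matches may overlap. Among 40438 windows of the same length at OCRs in all libraries away from every start, AGATAA was in 10.3%, AGGAAG in 29.2%, TGTGGT in 19.98%, TGANTCA in 8.06%, CAGCTG in 8.46%, CCAAT in 11.1%, GGGCGG in 3.44%, GCGCANGC in 0.507% and the CTCF consensus in 5.48%. Among 26541 windows within 3 kb of a start, the shares were 5.88%, 21.6%, 13.0%, 4.64%, 7.32%, 14.04%, 18.4%, 4.13% and 3.46% in the same order. Matches describe letters and not bound factors. In the Kmt2a distal window a tandem pair of AGATAA stood before a TGANTCA match. The Dnmt3a intronic window held TGTGGT, as did those of Ezh2 and the Asxl1 promoter, and the upstream Tet2 window held it on the opposite strand together with a TGANTCA match. A pair of CCAAT matches and a GC box lay in the upstream Dnmt3a window, and the internal Idh1 window held no match to any of the motifs.

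RefSeq (GRCm38) gave promoter sequence for 7 of the 9 genes, Dnmt3a, Tet2, Asxl1, Ezh2, Idh1, Idh2 and Kmt2a. For each gene the RefSeq start nearest to its 5′ start was used. For Idh1 this is not the internal start that has its most intense OCR. In the 250 bases before the start, all 7 had a ratio of observed to expected CpG above the median of 0.374 over 32851 RefSeq promoters. Tet2 had the highest, 1.19 with 51 CpG and 83.6% G+C, followed by Dnmt3a at 0.938 with 38 CpG and 82.4% G+C. Ezh2 was at 0.910, Idh1 at 0.848, Kmt2a at 0.787, Idh2 at 0.603 and Asxl1 at 0.598. CpG content and promoter intensity did not share an order: Asxl1, with the lowest ratio of the 7, had a more intense promoter OCR than Tet2, with the highest.

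Dnmt3a (ENSMUSG00000020661.15, chr12:3806007-3914443, plus strand) had the most OCRs of the 9 genes, 40, of which 17 were in all 7 libraries. Its window held 2.70 OCRs per 10 kb, at the 89.9th percentile of all protein-coding windows, against a median of 1.04 per 10 kb. The promoter OCR (chr12:3805786-3809455) had a fold enrichment of 57.6 in HPC7-6, the lowest, 92.2 at the median and 118 in HPC7-1, the highest. Its percentile lay between 92.3 and 96.7. An intronic OCR 50.0 kb into the gene (chr12:3855238-3856930), 5026 bp from the nearest annotated start, was more intense than the promoter. Its fold enrichment was 83.4 in HPC7-6, 134 at the median and 173 in HPC7-4, and its mean percentile was 97.5. In each of the 7 libraries it exceeded the promoter, by 1.32 to 1.76 times. Across the genome, 7.21% of the 13321 genes with a promoter OCR in all libraries held a more intense OCR in the gene body away from every start, and Dnmt3a was the only one of the 8 genes here to do so.

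Other Dnmt3a elements were spread along the locus. A distal OCR 14.1 kb upstream (chr12:3791041-3792846), in no annotated gene, had fold enrichments of 59.6 at the lowest, 73.6 at the median and 95.9 at the highest, with a mean percentile of 93.5. Within introns, the OCR at chr12:3832453-3835438 had a mean percentile of 87.7 and the one at chr12:3870762-3872014 of 78.9. Dnmt3a also has internal starts, among them a pair of coding transcripts that begin at chr12:3891728 and chr12:3891744. The OCR nearest to these (chr12:3891907-3893645, mean percentile 87.7, fold enrichment 44.9 ± 11.0, SD, n = 7) had its summit 1154 bp away from the start, and a peak lay within 500 bp of them in 3 of 7 libraries. Another internal start had an OCR 2576 bp away (chr12:3867961-3869113, mean percentile 81.6), and 6 of the 12 OCRs assigned to starts of Dnmt3a were in all libraries.

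**Figure D1:**
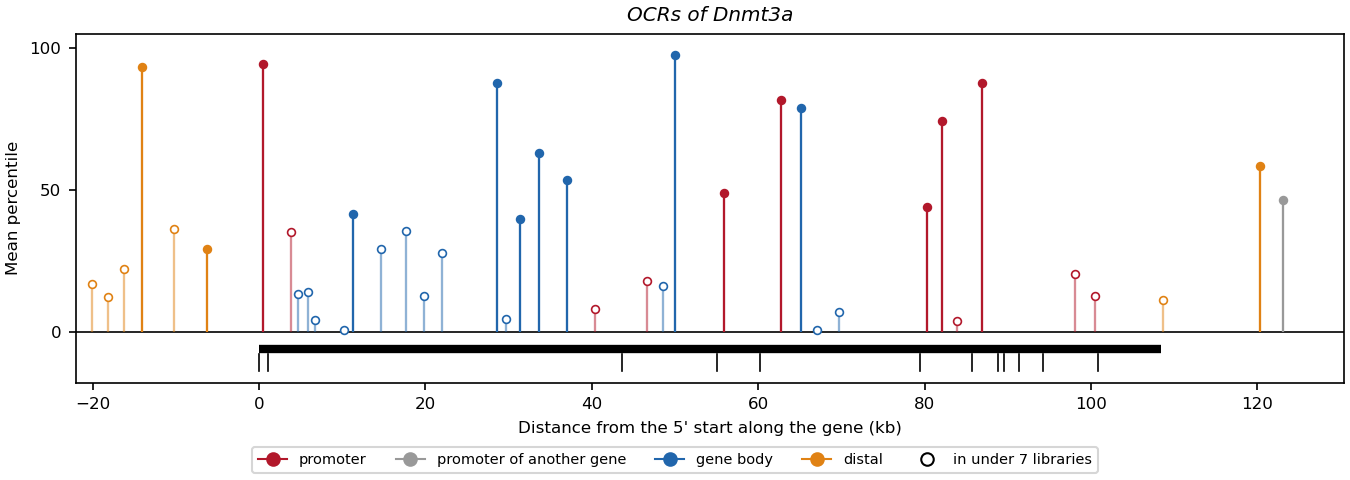
Mean percentile of fold enrichment (vertical axis, over the libraries with a peak) of each OCR in the Dnmt3a window against distance from the 5′ start (kb), with the gene as a black bar and annotated starts as ticks. Filled points are in all 7 libraries and open ones in fewer; the gene body OCR at 50.0 kb stands above the promoter OCR.

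Tet2 (ENSMUSG00000040943.12, chr3:133463679-133545139, minus strand) had 18 OCRs with 6 in all libraries. The promoter OCR (chr3:133542989-133546226) ranged in fold enrichment from 69.6 in HPC7-6 through a median of 98.2 to 127 in HPC7-5. It also overlaps the annotated gene Gm42567, so its signal cannot be assigned to 1 of the genes. Away from the promoter, 4 OCRs were in all libraries, 1 in the gene body and 3 distal, with mean percentiles from 21.1 to 84.0. The intronic OCR at 14.3 kb (chr3:133530473-133531217) ranged from 14.1 to 32.1 in fold enrichment around a median of 24.5. Further away, the distal OCR 18.6 kb upstream (chr3:133563328-133564292), inside Gm42567, ranged from 20.8 to 46.1 around a median of 26.6. The mean percentiles of these OCRs, 80.6 and 84.0, were below that of the promoter at 95.7. None of the 5 start groups in the 3′ part of Tet2 had a peak within 3 kb in any library.

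The promoter of Tet2 was compared with those of the other TET genes inside each library, using an exact permutation test that flips the signs of the 7 differences in log10 fold enrichment (two-sided, smallest possible p 0.0156), adjusted over 8 pairs of related genes. Tet1, which is active in embryonic stem cells, had a fold enrichment of 20.5 ± 4.45 (SD, n = 7), and Tet2 exceeded it in 7 of 7 libraries by a ratio of 5.04 (3.78 to 6.28, adjusted p = 0.0179 in the exact test). With the 5′ start alone this pair could not be tested, because Tet1 did not have a peak there in every library. Tet3 had 111 ± 21.6 and was above Tet2 in 6 of 7 libraries by a ratio of 1.08 (exact test, adjusted p = 0.03125). Without each of HPC7-1, HPC7-2, HPC7-4, HPC7-5, HPC7-6 and HPC7-7 the adjusted p was 0.0625 in the exact test, in which 6 libraries can reach 0.03125 at the lowest, while the log10 difference of Tet2 minus Tet3 stayed between -0.0366 and -0.0288, near the -0.0346 of all 7 libraries. Relative to the median promoter of the chromosome the difference was larger, -0.12 (exact test, adjusted p = 0.0179). Dnmt3a exceeded Dnmt3b, the other de novo DNA methyltransferase, by 1.90 times (1.58 to 2.19) in 7 of 7 libraries (exact test, adjusted p = 0.0179). Of 7 other genes of DNA methylation and demethylation (Dnmt1, Dnmt3b, Dnmt3l, Uhrf1, Tet1, Tet3 and Tdg), 6 had a promoter OCR in all libraries, and Dnmt3l, a cofactor without catalytic activity that acts in germ cells, had a peak in 1. The maintenance methyltransferase gene Dnmt1 had 115 ± 18.1 and its cofactor gene Uhrf1 150 ± 27.2 (SD, n = 7).

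Ezh2 (ENSMUSG00000029687.16, chr6:47530139-47595341, minus strand) had 15 OCRs, 4 of them in all libraries. At its promoter (chr6:47593863-47596172) the fold enrichment was 88.1 in HPC7-6, 133 at the median and 173 in HPC7-5. One intronic OCR 29.6 kb into the gene (chr6:47565297-47566496) was in all libraries with 32.5, 40.7 and 59.7 as its lowest, median and highest values, and a mean percentile of 87.3. It was the only gene body OCR of Ezh2 found in all libraries, and the other 5 were in 2 to 6 libraries with mean percentiles of at most 22.2. Ezh2 exceeded Ezh1, the alternative catalytic subunit of PRC2, by 3.96 times (3.08 to 5.27) in 7 of 7 libraries (exact test, adjusted p = 0.0179).

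Asxl1 (ENSMUSG00000042548.14, chr2:153345829-153404007, plus strand) had the second most intense promoter OCR (chr2:153344708-153347610), with fold enrichments of 113, 158 and 195 at the lowest, median and highest. Its summit lay 153 bp before the start, and the OCR also overlaps the gene 2500004C02Rik. A second OCR 5.01 kb into the gene (chr2:153350220-153351758) had a mean percentile of 82.7, and a distal OCR 9.52 kb upstream (chr2:153335917-153336691) had 86.4. No gene body OCR away from the starts was in all libraries. Asxl2 had a stronger promoter OCR than Asxl1 in 7 of 7 libraries, by a ratio of 1.18 (exact test, adjusted p = 0.0179), and Asxl3 had none. Measured against the median promoter of its own chromosome, the Asxl1 and Asxl2 promoters no longer differed past the threshold (exact test, adjusted p = 0.188). Of the 9 other Polycomb and ASXL-associated genes listed (Ezh1, Eed, Suz12, Rbbp4, Rbbp7, Jarid2, Asxl2, Asxl3 and Bap1), 8 had a promoter OCR in the top 25% of every library. The core PRC2 genes Suz12 and Eed had 151 ± 27.9 and 82.3 ± 14.7, and Bap1 had 90.9 ± 12.9 (SD, n = 7).

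Kmt2a (ENSMUSG00000002028.13, chr9:44803355-44881296, minus strand) had the weakest promoter OCR of the 8, at 55.4 in HPC7-6, 69.8 at the median and 90.3 in HPC7-5. Its mean percentile of 92.2 was close to 91.9, the median over all protein-coding genes with a promoter peak. This OCR (chr9:44878775-44883721) was 4947 bp wide and overlaps AC061963.1. Its window held 23 OCRs with 8 in all libraries. The distal OCR 11.6 kb upstream (chr9:44892423-44893380), whose sequence with the tandem AGATAA is shown above, had fold enrichments of 25.2, 35.3 and 56.4 and a mean percentile of 86.2. Within the gene, the OCR at 50.6 kb (chr9:44830348-44830936) had a mean percentile of 79.1, and 3 weaker ones were also in all libraries. Kmt2b, the closest paralogue, exceeded Kmt2a by 3.02 times (2.78 to 3.33) in 7 of 7 libraries (exact test, adjusted p = 0.0179). All 9 genes of MLL complexes listed (Kmt2b, Kmt2c, Kmt2d, Men1, Psip1, Wdr5, Rbbp5, Ash2l and Dpy30) had a promoter OCR in the top 25% of every library. Men1, the menin gene, had 149 ± 34.4, and Psip1, which encodes LEDGF, had 87.1 ± 16.8 (SD, n = 7).

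Idh1 (ENSMUSG00000025950.16, chr1:65158616-65186500, minus strand) had the most intense promoter OCR of the 9 genes, and it was not at the 5′ start. The OCR at an internal coding start 7.32 kb downstream (chr1:65177540-65180288) had fold enrichments of 138 in HPC7-6, 208 at the median and 243 in HPC7-5, with percentiles from 99.0 to 99.6. At the 5′ start, used by 5 transcripts, the OCR (chr1:65185553-65187935) had 99.2, 130 and 159 and a mean percentile of 97.7. The internal OCR exceeded it in 7 of 7 libraries, by 1.30 to 1.66 times. Among 6237 genes with starts over 6 kb apart, 8.96% had a more intense OCR at another start than at the 5′ start in every library. Of the 8 such genes here, Idh1 was the only one. The 5′ OCR also overlaps Pikfyve, so its height belongs to a region with starts of both genes. Across the whole window Idh1 had 7 OCRs, 3 of them in all libraries and all 3 at its starts.

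Idh2 (ENSMUSG00000030541.16, chr7:80094846-80115392, minus strand) had a single strong promoter OCR (chr7:80113901-80115903) with 59.0, 92.5 and 114 as its lowest, median and highest fold enrichment. Idh1 exceeded Idh2 by 2.15 times (1.86 to 2.54) in 7 of 7 libraries (exact test, adjusted p = 0.0179). With the 5′ start of Idh1 alone, the difference was 0.16 on the log10 scale and still passed (exact test, adjusted p = 0.0182). Promoters on chromosome 1 had a median fold enrichment 1.20 times that of the median chromosome, and relative to the median promoter of each chromosome the log10 difference was 0.27 and also passed (exact test, adjusted p = 0.0179). The Idh2 window was the densest, at 3.30 OCRs per 10 kb, but many of its OCRs lie in the neighbouring gene Zfp710, including a pair at starts of that gene with mean percentiles of 88.5 and 87.1. No gene body OCR of Idh2 was in all libraries. A pair of distal OCRs on opposite sides of the gene both held the CTCF consensus under the summit, on opposite strands. They are printed because they are the strongest distal OCRs of the window.
Idh2, distal OCR 17.3 kb upstream (chr7:80132650-80132749, minus strand): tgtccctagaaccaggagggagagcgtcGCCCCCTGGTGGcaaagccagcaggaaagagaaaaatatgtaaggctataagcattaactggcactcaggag
Idh2, distal OCR 30.8 kb downstream (chr7:80084583-80084682, minus strand): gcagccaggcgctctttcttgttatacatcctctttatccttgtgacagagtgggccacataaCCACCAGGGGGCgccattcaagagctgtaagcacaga
The first (chr7:80131338-80133364) had fold enrichments of 19.5, 25.6 and 37.5 and a mean percentile of 82.9. The second (chr7:80083266-80085051), inside Zfp710, had 11.6, 15.0 and 18.8 and a mean percentile of 73.4. The genes of the NAD-dependent mitochondrial enzyme, Idh3a, Idh3b and Idh3g, had promoter OCRs in all libraries at 99.4 ± 22.4, 40.4 ± 8.87 and 108 ± 26.6 (SD, n = 7).

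Npm1 (ENSMUSG00000057113.13, chr11:33152287-33163206, minus strand) had the fewest OCRs of the 8 genes with a promoter OCR, 5. Of these 4 were in all libraries and none was in the gene body away from its starts. The Npm1 window was also the shortest, 50.9 kb. It held 0.982 OCRs per 10 kb, at percentile 48.15 of all protein-coding windows. For OCRs in all libraries the density was 0.786 per 10 kb, at percentile 66.1. The promoter OCR (chr11:33161817-33163817) was centred 25 bp from the start and had fold enrichments of 104 in HPC7-6, 153 at the median and 181 in HPC7-5. An OCR near Fgf18 (chr11:33146461-33149928), a start of another gene, had a mean percentile of 84.8. Npm1 exceeded Npm3 by 4.16 times (3.52 to 4.70) in 7 of 7 libraries (exact test, adjusted p = 0.0179), and Npm2, an oocyte nucleoplasmin, had a promoter peak in 1 library. Nucleolin, Ncl, a nucleolar partner, had 296 ± 59.3, and fibrillarin, Fbl, had 75.3 ± 18.0 (SD, n = 7).

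Wt1 (ENSMUSG00000016458.14, chr2:105126529-105173616, plus strand) had no peak within 3 kb of the start of any of its 9 transcripts in any library. The lowest fold enrichment that any list contains was between 1.68 and 2.44 depending on the library, so a promoter signal below that height would not appear. Its window held 4 OCRs, 0.459 per 10 kb. The only one in all 7 libraries (chr2:105120836-105121245), 5.51 kb upstream in the antisense gene Wt1os, had fold enrichments of 3.13 at the lowest, 4.08 at the median and 5.09 at the highest. Its mean percentile was 23.8, against 92.2 or more for the promoter OCRs of the other 8 genes. The zinc finger genes Egr1, Egr2 and Egr3, whose products recognise a similar GC-rich motif, had promoter OCRs in all libraries at 159 ± 28.9, 77.3 ± 14.1 and 155 ± 26.9 (SD, n = 7).

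**Figure D2:**
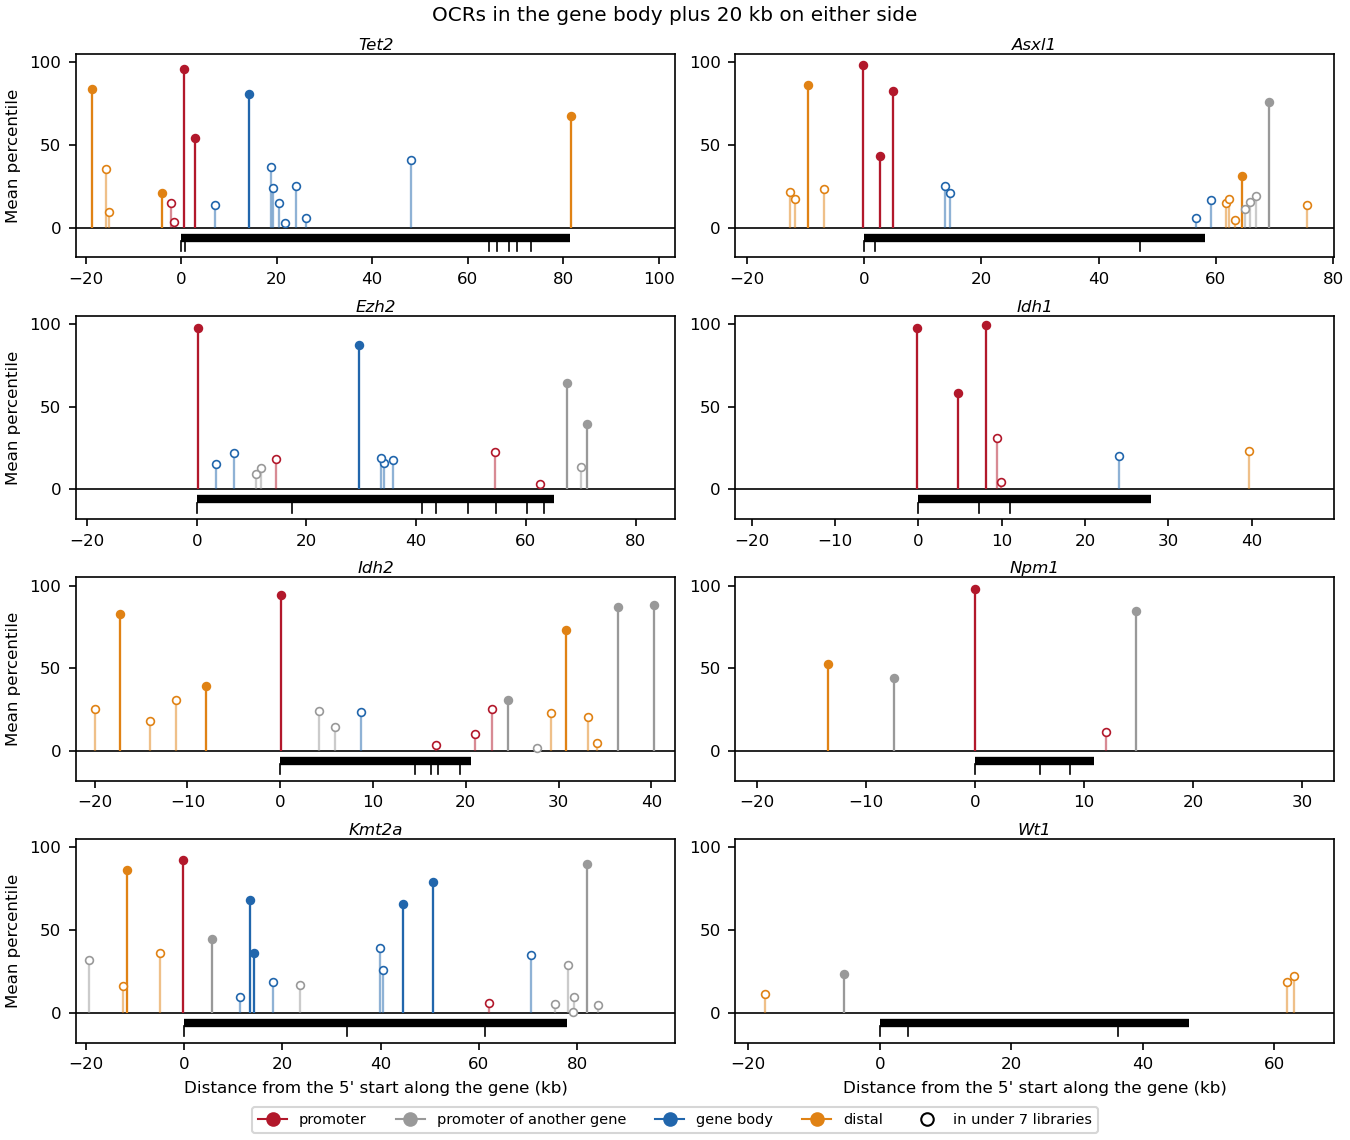
Mean percentile of fold enrichment (vertical axis) of each OCR against distance from the 5′ start (kb) for the other 8 genes, with the gene as a black bar and annotated starts as ticks; filled points are in all 7 libraries. Promoter OCRs reach the highest values in the first 7 panels, Idh1 has its most intense OCR at an internal start, and Wt1 has no promoter OCR.

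The order of promoter intensity by mean fold enrichment was Idh1 at 197 ± 39.2, Asxl1 at 153 ± 27.2, Npm1 at 147 ± 28.2, Ezh2 at 137 ± 28.9, Tet2 at 103 ± 20.6, Idh2 at 91.9 ± 20.2, Dnmt3a at 89.7 ± 19.9 and Kmt2a at 69.7 ± 12.4 (SD, n = 7), with Wt1 last. Library HPC7-6 gave the lowest value for all 8 genes and HPC7-5 the highest for 7 of them, so neighbours were compared within libraries. The pairs and their direction came from the same values that were then tested, which the p-values do not take into account. How often other gene pairs would pass was not computed. Of 7 neighbouring pairs, 3 differed, each with 7 of 7 libraries in the same direction: Idh1 above Asxl1 by 1.28 times, Ezh2 above Tet2 by 1.33 times and Dnmt3a above Kmt2a by 1.27 times (exact sign-flip permutation test, adjusted p = 0.0365 for each). Asxl1 and Npm1 did not (ratio 1.05, 0.923 to 1.17 over the libraries, exact test, adjusted p = 0.164), nor did Npm1 and Ezh2 (1.07, 0.925 to 1.24, exact test, adjusted p = 0.153). Tet2 and Idh2 had a ratio of 1.12, with equal values in 1 library (exact test, adjusted p = 0.0547), and Idh2 and Dnmt3a one of 1.02 (exact test, adjusted p = 0.406). Whether these pairs passed the adjusted threshold depended on settings: with the 5′ start alone or relative to the median promoter of the chromosome, 0 of 7 pairs passed, and the place of Idh1 above Asxl1 was lost in both. Kmt2a stayed below Dnmt3a by the same ratio in 7 of 7 libraries with the 5′ start alone, where its adjusted p was 0.0547 in the exact test because fewer than 3 of the 7 pairs reached the smallest p of 0.0156. Relative to the chromosome, Npm1 above Tet2 and Idh2 above Kmt2a likewise held in 7 of 7 libraries (exact test, adjusted p = 0.0547). No pair passed either in 6 of the 7 runs that left out 1 library (HPC7-1, HPC7-2, HPC7-4, HPC7-5, HPC7-6 or HPC7-8), where the smallest p that 6 libraries allow is 0.03125 in the exact test, and 5 pairs passed without HPC7-7. In all 7 of these runs the 3 pairs kept their direction in 6 of 6 libraries, with log10 differences of 0.0954 to 0.123 for Idh1 and Asxl1, 0.114 to 0.136 for Ezh2 and Tet2 and 0.0939 to 0.120 for Dnmt3a and Kmt2a.

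**Figure D3:**
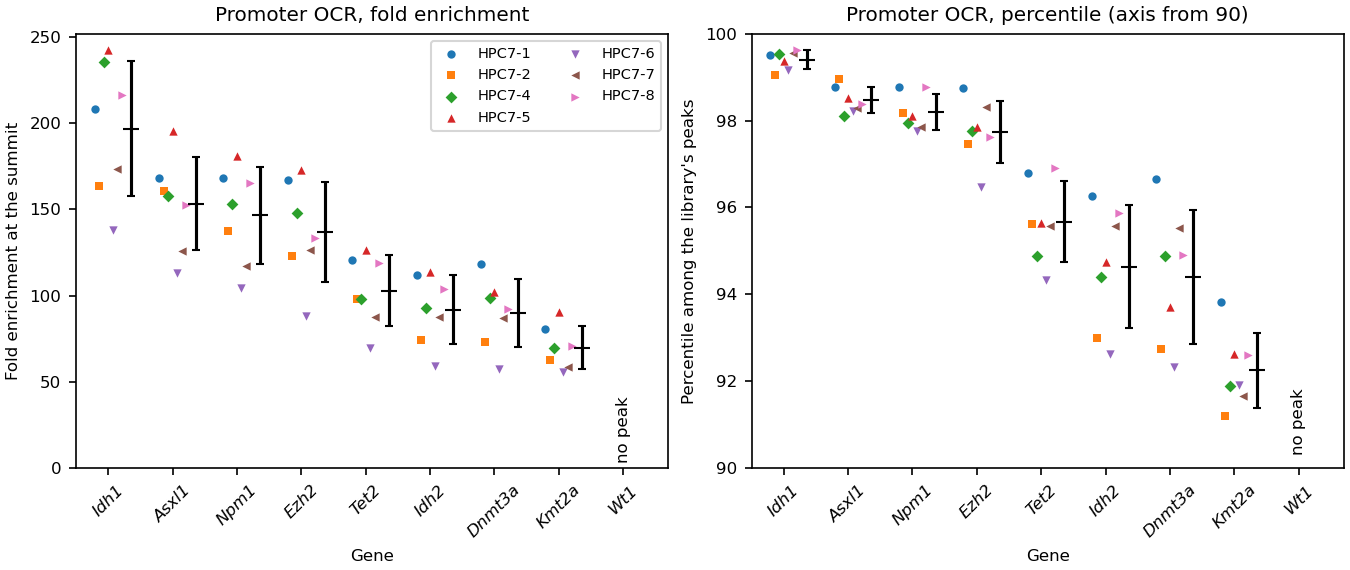
Fold enrichment (left, from 0) and percentile among the peaks of the library (right, axis from 90) of the promoter OCR of each gene, with 1 symbol per library and the mean ± SD as a bar. Idh1 is highest and Kmt2a lowest of the 8 genes with a promoter OCR, and Wt1 has no peak.

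In total, 8 pairs of a gene and a related gene were tested, and all 8 differed in the exact test. The share of unrelated gene pairs that would pass was not computed, so this count cannot be read as a trait of related genes. The count was 7 without each of HPC7-1, HPC7-2, HPC7-4, HPC7-5, HPC7-6 and HPC7-7, where Tet2 against Tet3 did not pass. Without HPC7-8 it was 8. Relative to the median promoter of the chromosome it was 7, as Asxl1 against Asxl2 did not pass. With the 5′ start alone it was also 7, as Tet2 against Tet1 could not be tested. Wt1 could not be paired with Egr1 because it had no promoter peak. The related gene was higher for Tet2 against Tet3, Asxl1 against Asxl2 and Kmt2a against Kmt2b, and lower for the other 5.

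**Figure D4:**
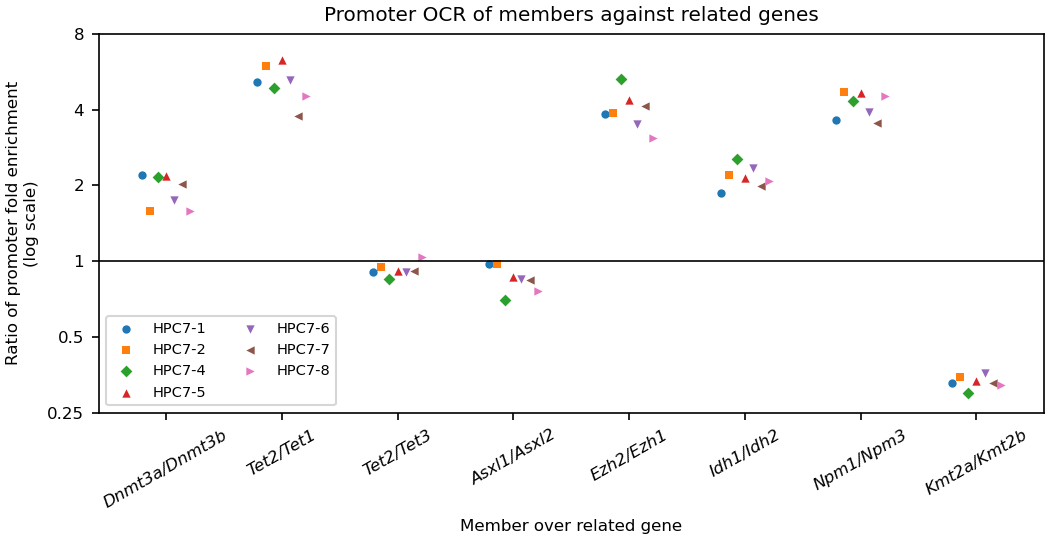
Ratio of promoter fold enrichment of a gene to that of its related gene in each library (log axis), with 1 symbol per library and a line at equal values. All 7 ratios lie above the line for 5 pairs, and below it for Asxl1 over Asxl2 and Kmt2a over Kmt2b.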

How the data were processed

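The libraries were bulk ATAC-seq of HPC7 cells. Per the labels, the authors used BWA and mm10 for alignment and MACS2 for peaks, library by library. The paper adds adapter trimming with Cutadapt, BWA-mem as the aligner and ChIP-R for reproducible peaks. Versions and settings of these tools were not found in the sources used here. A peak in the deposited lists has a ratio (fold enrichment over background), a −log10 p-value, a −log10 q-value and a score. The deposited fold enrichments were all whole multiples of 1 step per library within 0.01, from which summit reads and library background were computed. Peaks stand for reads that passed the caller, so values below its threshold are unknown.

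Overlapping peaks (1 bp or more) of different libraries were joined into 1 OCR. Promoter peaks lay within 3 kb of any of 132666 transcript starts of GENCODE M21, and the most intense one represented a gene. Intensities were compared within libraries with an exact sign-flip permutation test (128 sign patterns) and Benjamini-Hochberg adjustment. The elements picked for each gene were, where present, the most intense promoter OCR and the 2 most intense OCRs outside promoters by mean percentile. Further ones were chosen after their values were seen, and not every picked element is described in the text. Settings varied were the q threshold (−log10 q from 5 up), lists of equal length (84593 peaks), 1 kb promoters, starts of coding transcripts, 10 kb flanks, 50% overlap, −log10 p or percentile as intensity, and each library left out. Further ones, the 5′ start alone and the chromosome median, were chosen after seeing the data. Genes and lists were chosen with earlier results of these data known. A gene of the blood cell marker list is not reported here. Interval and test functions were tested on simulated data. Tools were Python 3.11.15, pandas 2.3.3, numpy 2.4.6, scipy 1.17.1 and samtools for sequence.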

Additional observations from a re-analysis of the deposited data

How the results depend on the processing

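All 8 genes with a promoter OCR kept it in all libraries and in the top 25% under each alternative in which this was computed, and no value reversed; of 321 alternative values, 291 stayed on the same side, 23 moved and 7 were weaker. Lists of equal length lowered the number of OCRs in the windows to 92, of which 56.5% were in all libraries (58.9% over the genome), with 16 at starts of other genes, 27 in gene bodies and 23 distal. Promoters of 1 kb left 20 promoter OCRs and 12 at starts of other genes, starts of coding transcripts left 8 at starts of other genes, and 10 kb flanks left 15 distal OCRs. The number of differing neighbours was 0 with the 5′ start alone and 0 relative to the chromosome median. Leaving out 1 library gave between 0 and 5, and 0 in 6 of 7 runs: with 6 libraries the smallest p is 0.03125 in the exact test, so 5 of 7 pairs have to reach it to pass, as happened only without HPC7-7. Dividing by the library median cannot change a difference within a library. No paired analysis was possible because the labels give 1 group and no other group to pair with it (the peak name prefixes are unexplained and were not used); the tests compare genes within each library. Read totals were not used, and a missing peak means only that no peak was called.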
